A study of Mus musculus with 12 samples.

Results

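Matrix metalloproteinases (MMPs) and the tissue inhibitors that block them (TIMPs) were followed through demyelination of the spinal cord in young and middle-aged mice. The 10 genes described here were taken by name, as 7 MMPs (Mmp2, Mmp3, Mmp9, Mmp12, Mmp13, Mmp14 and Mmp19) and 3 TIMPs (Timp1, Timp2 and Timp3), out of 46078 gene identifiers in the count table. Each matched a single Ensembl gene. At day 3 of the lesion 7 of these genes rose at both ages and only Mmp9 fell. Of all tested genes 28.3% rose and 26.3% fell in young mice, and 29.2% and 29.3% in middle-aged mice. Mmp13 and Timp1, and in young mice Mmp12, rose from near or at 0. Mmp13 and Timp1 could be tested only through their injured libraries, so they had to differ. Middle-aged tissue also held more Mmp12 than young tissue, both before and after injury.

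MMPs are zinc-dependent proteases that are made as inactive precursors and cut collagen, elastin, other matrix proteins and many cell surface proteins. Cells hold them in check through TIMPs, small secreted proteins that fold into the catalytic cleft of an active MMP. In the central nervous system MMPs are known for opening the blood-brain barrier, for cutting myelin proteins and for clearing inhibitory matrix after injury, actions that TIMPs oppose.

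White matter of the ventrolateral spinal cord was cut from sections by laser capture microdissection and its RNA was amplified and sequenced. The mice were C57Bl6, either young (6 weeks) or middle-aged (8 months), and were either naïve or injured by a local injection of the myelin-stripping lipid lysolecithin 72 h before collection. Naïve mice had no injection of any kind that the sources used here mention, so the surgery and the lipid cannot be told apart. Each of the 4 groups had 3 libraries. The series text states that tissue of 5 animals was pooled per condition and that 3 replicates were sequenced, and a legend of the study describes every data point as RNA of such a pool. No source used here says outright that the pools of a group held different animals, so p-values measure the spread between libraries, which may be partly technical. Counts on genes totalled 9834447 to 12807437 per library, and 3 counts, taken as the floor of detection, corresponded to 0.234 to 0.305 CPM (counts scaled to 1000000 per library). Oligodendrocyte markers were abundant in every library, at a summed level of 53010 CPM or more in naïve tissue. Neuron markers, at 680.8 to 1976 CPM in young naïve tissue, showed that the captured tissue was not free of neuronal RNA.

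Of the 10 genes, 3 (Mmp13, Mmp12 and Mmp3) lie in 1 row of MMP genes on chromosome 9. Their promoters are shown because 2 motifs near the start of transcription were found in them and in no other member with a known window, and Timp1 is shown as a member that also rose from near 0 but lacks both. The sequences are from RefSeq on GRCm38.p6, from 250 bases before to 50 bases after the annotated start, on the strand of the gene. Capitals mark 3 motifs. AP-1 is TGAGTCA on either strand. The TATA box is TATAAA on the strand of the gene. PEA3 is AGGAAG on either strand. None of the marked motifs overlap one another.
Mmp13, chr9:7272264-7272563, plus strand: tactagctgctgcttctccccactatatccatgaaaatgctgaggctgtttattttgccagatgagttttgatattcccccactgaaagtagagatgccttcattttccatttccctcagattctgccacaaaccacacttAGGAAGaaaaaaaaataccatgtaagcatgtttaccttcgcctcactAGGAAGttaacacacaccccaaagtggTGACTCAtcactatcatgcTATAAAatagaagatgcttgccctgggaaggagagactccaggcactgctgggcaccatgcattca
Mmp12, chr9:7347124-7347423, plus strand: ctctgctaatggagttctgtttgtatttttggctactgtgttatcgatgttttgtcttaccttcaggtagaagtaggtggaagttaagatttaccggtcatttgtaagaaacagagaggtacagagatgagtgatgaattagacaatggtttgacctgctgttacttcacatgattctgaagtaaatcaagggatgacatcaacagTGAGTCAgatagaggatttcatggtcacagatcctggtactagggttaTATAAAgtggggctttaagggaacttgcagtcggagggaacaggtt
Mmp3, chr9:7445572-7445871, plus strand: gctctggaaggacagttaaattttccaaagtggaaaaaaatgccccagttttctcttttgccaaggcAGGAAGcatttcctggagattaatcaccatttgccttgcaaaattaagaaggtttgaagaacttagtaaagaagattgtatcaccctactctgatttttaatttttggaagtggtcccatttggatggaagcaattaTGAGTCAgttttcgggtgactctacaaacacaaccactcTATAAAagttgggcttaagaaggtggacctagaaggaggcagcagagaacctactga
Timp1, chrX:20869916-20870215, plus strand: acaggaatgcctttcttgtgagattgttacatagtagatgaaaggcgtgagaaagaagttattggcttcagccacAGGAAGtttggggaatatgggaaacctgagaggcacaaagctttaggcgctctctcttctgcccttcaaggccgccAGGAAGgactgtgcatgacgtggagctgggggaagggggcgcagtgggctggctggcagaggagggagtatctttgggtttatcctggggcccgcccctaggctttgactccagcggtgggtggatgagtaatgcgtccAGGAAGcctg

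The promoter table held 7 of the 10 members in 8 windows, and no window for Mmp2, Mmp9 or Mmp19. The AP-1 letters began at base -35 relative to the start in Mmp13, at -44 in Mmp12 and at -46 in Mmp3. A TATA box began at -16 in Mmp13, at 4 in Mmp12 and at -7 in Mmp3. A further window of Mmp12, at chr9:7344147-7344446, and the windows of Mmp14, Timp1, Timp2 and Timp3 held neither. Of 32851 windows of this length in the table, 5.2% held the AP-1 letters, 8.32% the TATA box and 35.4% the PEA3 letters, so a PEA3 match, of which Timp1 had 3, is common. Across the whole family, 7 of the 10 genes of the chromosome 9 row and 0 of 12 other genes with a window held the AP-1 letters. These are matches of letters, not evidence of binding, and 3 of the genes that hold both motifs (Mmp1a, Mmp1b and Mmp7) had no count in any library.

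**Figure D1:**
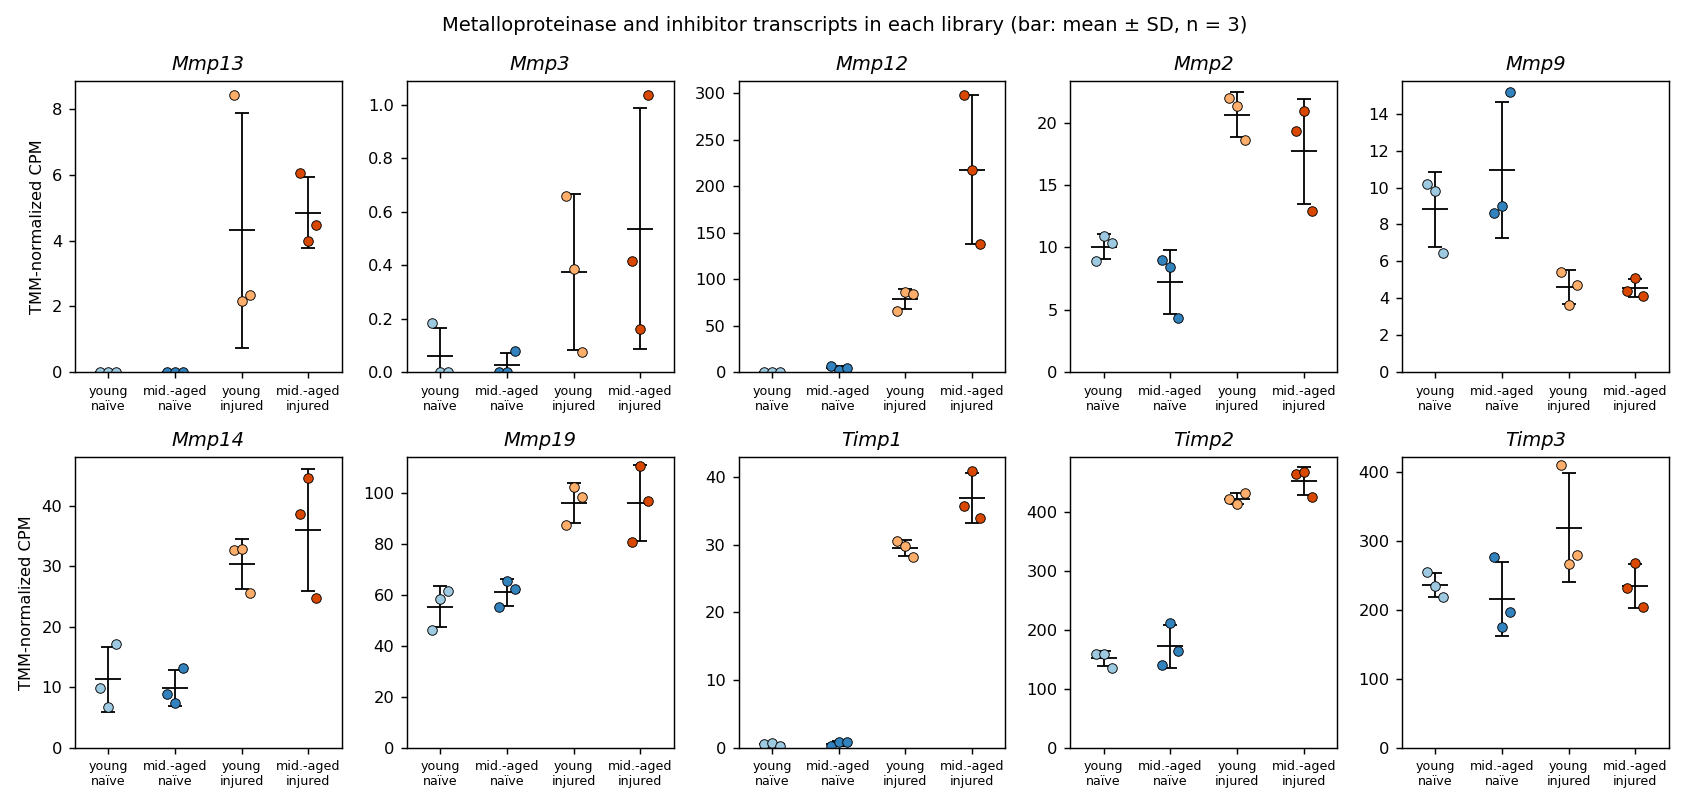
TMM-normalized CPM (y axis, linear, from 0) of each of the 10 genes in the 4 groups (x axis); each point is 1 library and the bars give the mean ± SD of 3. Mmp12, Mmp13 and Timp1 sit at or near 0 in young naïve tissue, Mmp9 is lower in the injured libraries, and Timp3 overlaps between naïve and injured middle-aged tissue.

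The first comparison asked how demyelination changes these genes within each age. Levels are CPM scaled by trimmed mean of M values (TMM), changes are log2 fold changes ± standard error, and adjusted p-values are from edgeR's quasi-likelihood test over 15866 genes. Of the 9 members tested in young mice, 7 rose and 1 fell, against a background of 28.3% of all tested genes that rose and 26.3% that fell. In middle-aged mice the counts were again 7 and 1, with 29.2% of all tested genes higher and 29.3% lower. All 8 of these members moved in the same direction at both ages. Their libraries did not overlap between naïve and injured tissue at either age, and an exact permutation test over both ages gave a 2-sided p of 0.005 for each, the smallest this design allows. The share of all tested genes that did the same is not given here, so this describes these members only. The median log2 fold change of the 9 was 1.43 in young and 1.40 in middle-aged mice, and it was the same with Mmp13 set to its lower bound. The median of all tested genes was 0.00 in young and -0.03 in middle-aged mice. Mmp3 did not pass the filter on low counts. Mmp13 and Timp1 passed it only through the injured libraries, as Mmp12 would have in young mice alone, so these had to differ and the counts of members that passed are a description only. In bulk tissue, fewer cells of a type and less RNA per cell cannot be told apart.

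Mmp12, the macrophage elastase, had the largest log2 rise of the members with a measured naïve level in young mice, while at middle age Timp1 (5.88) stood above it (5.61). It had 2, 0 and 1 counts in the 3 young naïve libraries and 894, 1108 and 1110 in the young injured ones. In middle-aged mice it had 69, 17 and 60 counts in naïve and 3590, 2725 and 1593 in injured tissue. No library of one condition reached the other at either age, and the 3 middle-aged injured libraries spread more widely than the young ones. The mean level was 0.0966 ± 0.0916 CPM in young naïve, 78.4 ± 11.1 in young injured, 4.40 ± 2.44 in middle-aged naïve and 217.7 ± 80.2 CPM in middle-aged injured tissue (SD, n = 3). In the young the log2 rise of Mmp12 was 9.52 ± 0.60 (edgeR adjusted p = 1.08e-08). The rise was 5.61 ± 0.37 at middle age (adjusted p = 1.69e-08). Because the young naïve libraries held 3 counts in all, the young ratio of 816 carried a 95% interval of 279 to 3959 for counting error alone. The gene (ENSMUSG00000049723) spans chr9:7344381-7369499 on the plus strand. Its exons share 157 bases with Mmp1b on the opposite strand, and Mmp1b had no count in any library.

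Mmp13, or collagenase-3, which opens the triple helix of fibrillar collagen, was not detected without injury. All 6 naïve libraries held 0 counts, a result that allows up to 3 counts in each. Young injured libraries had 115, 28 and 31 counts and middle-aged injured libraries 73, 50 and 52. One young injured library thus stood well above the other two. The edgeR adjusted p of its modelled fold change was 0.000121 in young and 8.24e-05 in middle-aged mice. Against 3 counts summed over the naïve group, the summed counts of Mmp13 were 45.6-fold higher in young and 52.4-fold higher in middle-aged injured tissue. The p-values do not belong to these bounds. These bounds take no account of the spread of the injured libraries, and with 3 counts in each naïve library they would be lower. Mmp13 (ENSMUSG00000050578) lies at chr9:7272514-7283331 on the plus strand, with no other annotated gene overlapping it.

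Mmp3, or stromelysin-1, which digests proteoglycans and activates other MMPs, stayed near the floor. The counts were 2, 0 and 0 in young naïve, 0, 0 and 1 in middle-aged naïve, 9, 5 and 1 in young injured and 5, 2 and 12 in middle-aged injured libraries. Young injured tissue overlapped young naïve tissue, whereas the lowest middle-aged injured library was above the highest middle-aged naïve one. The ratio of summed counts was 5.90 in young mice (95% interval 1.37 to 53.2, counting error only) and 17.1 in middle-aged mice (2.71 to 708.5). An exact permutation test gave 2-sided p = 0.2 in young and 0.1 in middle-aged mice. With no filter the edgeR adjusted p was 0.149 in young and 0.0209 in middle-aged mice, and with DESeq2 it was 0.195 and 0.0417. Of 1771 stretches of 31 bases in Mmp3, 202 were shared with Mmp10, so reads could be split between these neighbours. Mmp3 (ENSMUSG00000043613) lies at chr9:7445822-7455975.

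The gelatinases Mmp2 and Mmp9, which cut denatured collagen and basement membrane, moved in opposite directions. Mmp2 had 98, 120 and 96 counts in young naïve, 300, 275 and 247 in young injured, 94, 80 and 54 in middle-aged naïve and 233, 262 and 150 in middle-aged injured libraries. Every injured library was above every naïve one. Mean levels were 10.04 ± 1.004 and 20.7 ± 1.81 CPM in young tissue before and after injury (SD, n = 3), and 7.25 ± 2.55 and 17.7 ± 4.22 CPM in middle-aged tissue. The rise was 1.04 ± 0.25 on the log2 scale for the young (edgeR adjusted p = 0.00309) and 1.30 ± 0.26 for the middle-aged (adjusted p = 0.000629). Mmp2 (ENSMUSG00000031740) lies at chr8:92827291-92853420.

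Mmp9 was the sole member that fell. It had 112, 108 and 60 counts in young naïve and 74, 47 and 63 in young injured libraries. In middle-aged mice it had 90, 86 and 190 counts in naïve and 53, 64 and 48 in injured libraries. Scaled to CPM the groups did not overlap, with naïve libraries between 6.45 and 15.2 and injured libraries between 3.64 and 5.43. On the log2 scale Mmp9 changed with injury by -0.94 ± 0.28 in the young (edgeR adjusted p = 0.0101). The change was -1.27 ± 0.28 at middle age (adjusted p = 0.00121). Without replicate 2 of the young injured group the young change was -0.78 and its adjusted p 0.0511. Mmp9 is a known granule enzyme of neutrophils, and summed neutrophil markers moved the other way, with 0 to 0.968 CPM in young naïve, 2.26 to 4.11 in young injured, 0.315 to 0.480 in middle-aged naïve and 2.80 to 3.80 CPM in middle-aged injured tissue. Of these 6 markers only S100a8 and Cxcr2 could be tested, and S100a8 rose at both ages and Cxcr2 at middle age. S100a8 had 0 counts in every naïve library, and Cxcr2 at most 3 in every middle-aged naïve one. In these comparisons they could be tested only through injured tissue, so they had to differ. Ly6g and Retnlg were never above 3 counts in an injured library. Summed neuron markers were also lower after injury, at 680.8 to 1976 CPM in young naïve and 274.8 to 479.7 CPM in young injured tissue. Of these 4 neuron markers 2 passed as lower in young mice, and at middle age 3 passed as lower and 1 as higher. Their part in the fall of Mmp9 was not tested. Mmp9 (ENSMUSG00000017737) lies at chr2:164940780-164955850.

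Mmp14, a membrane-anchored MMP that activates the precursor of Mmp2 with Timp2 as its docking partner, rose at both ages. It had 109, 75 and 160 counts in young naïve, 446, 424 and 340 in young injured, 92, 71 and 165 in middle-aged naïve and 466, 558 and 288 in middle-aged injured libraries. The groups did not overlap. Log2 fold changes were 1.43 ± 0.31 for the young (edgeR adjusted p = 0.00138) and 1.87 ± 0.32 for the middle-aged (adjusted p = 0.000156). Mmp14 (ENSMUSG00000000957) lies at chr14:54431612-54445364.

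Mmp19, a secreted MMP of basement membrane proteins, was the most abundant of the 7 MMPs in naïve tissue and the member with the smallest rise among those that rose. It had 508, 644 and 573 counts in young naïve, 1191, 1322 and 1309 in young injured, 577, 625 and 778 in middle-aged naïve and 976, 1386 and 1125 in middle-aged injured libraries. All injured libraries lay above all naïve ones. Mean levels were 55.4 ± 8.08 and 96.2 ± 7.81 CPM in young and 61.1 ± 5.20 and 96.3 ± 14.9 CPM in middle-aged mice. The log2 change of 0.80 ± 0.15 for the young (edgeR adjusted p = 0.000336) stood beside 0.66 ± 0.15 at middle age (adjusted p = 0.00137). Mmp19 (ENSMUSG00000025355, chr10:128790910-128800824) shares 789 exon bases with Tmem198b on the opposite strand, which changed by 0.57 and 0.55, and without a stated strand setting the reads of these genes cannot be told apart.

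The inhibitors differed among themselves. Timp1, an inhibitor that inflammatory cues induce in many cell types, had 6, 8 and 2 counts in young naïve and 2, 8 and 10 in middle-aged naïve libraries. It had 417, 384 and 374 counts in young injured and 431, 513 and 393 in middle-aged injured libraries. The injured libraries were tightly grouped and far above all naïve ones. Timp1 rose by 5.83 ± 0.34 on the log2 scale in the young (edgeR adjusted p = 4.95e-09) and by 5.88 ± 0.33 at middle age (adjusted p = 3.03e-09). Summed counts gave ratios of 57.8 (95% interval 35.4 to 101.4, counting error only) and 59.99 (38.7 to 98.5). Timp1 (ENSMUSG00000001131, chrX:20870166-20874735) lies within Syn1 on the opposite strand without sharing exon bases.

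Timp2, the most abundant inhibitor per length of exon and the partner of Mmp14, had 1749, 1755 and 1265 counts in young naïve and 5752, 5323 and 5734 in young injured libraries. In middle-aged mice it had 1468, 2015 and 2045 counts in naïve and 5600, 5857 and 4923 in injured libraries. The groups did not overlap, and the injured libraries of both ages fell between 412.6 and 467.7 CPM. Its rise of 1.48 ± 0.14 on the log2 scale in the young (edgeR adjusted p = 5.14e-07) stood beside 1.40 ± 0.14 at middle age (adjusted p = 7.63e-07). Timp2 (ENSMUSG00000017466) lies at chr11:118301069-118355740 on the minus strand.

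Timp3, which is bound to the matrix and also inhibits the sheddase Adam17, did not pass the threshold at either age. It had 2799, 2594 and 2042 counts in young naïve, 5592, 3442 and 3729 in young injured, 2885, 1666 and 2471 in middle-aged naïve and 2796, 3368 and 2371 in middle-aged injured libraries. Scaled to CPM, young injured libraries lay above young naïve ones, at 266.8 to 410.5 against 219.6 to 255.0 CPM, while the middle-aged groups overlapped. The log2 difference was 0.43 ± 0.19 for the young (edgeR adjusted p = 0.0640) and 0.12 ± 0.19 for the middle-aged (adjusted p = 0.603). The young change passed the threshold with scaling to library totals (0.63, adjusted p = 0.0135), with no filter (adjusted p = 0.0179), with only the libraries compared (0.0383) and with the replicate number as a block (0.0362). Timp3 (ENSMUSG00000020044, chr10:86300372-86349506) shares 1733 exon bases with Syn3 on the opposite strand. Syn3, a gene of neuronal synapses, had 1159 to 3492 counts per library and changed by 0.40 and 0.03, neither of which passed the threshold, and reads of the pair cannot be told apart without strand.

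**Figure D2:**
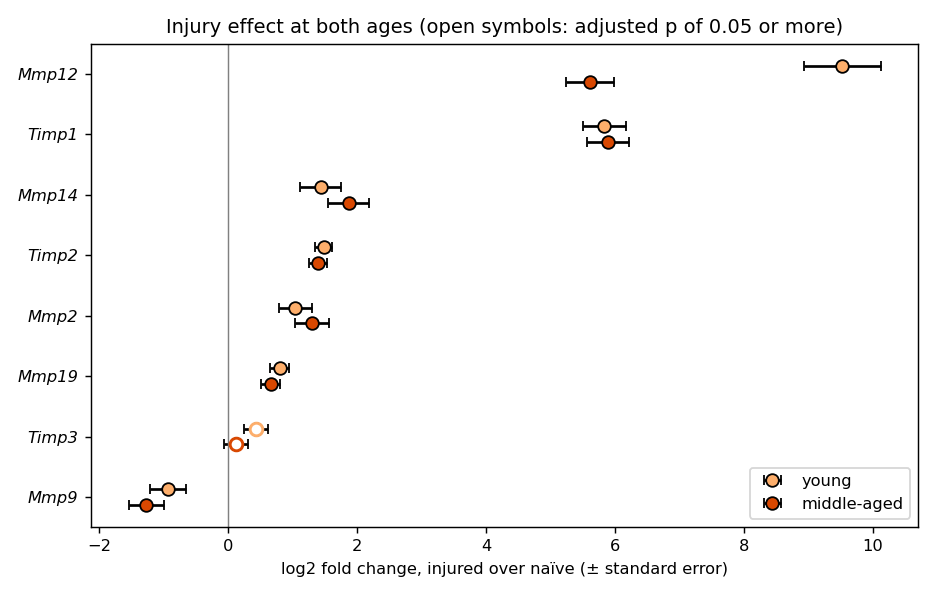
Log2 fold change of injured over naïve tissue (x axis, ± standard error) for 8 genes at both ages, in pale symbols for young and dark for middle-aged mice; Mmp13, at 0 counts in naïve tissue, and Mmp3, not tested, are left out. Mmp12 stands at 9.52 and 5.61, Timp1 at 5.83 and 5.88, Mmp9 lies left of 0 at both ages and the open symbols of Timp3 mark values that did not pass the threshold.

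The second comparison asked whether age alone altered these genes. In naïve tissue 1 of the 9 tested members, Mmp12, passed the threshold, against 3.8% of all tested genes in either direction. The middle-aged level exceeded the young one by 5.39 ± 0.79 on the log2 scale (edgeR adjusted p = 0.00211). Its summed counts of 146 and 3 gave a ratio of 47.0, with a 95% interval of 15.8 to 230.3 for counting error alone. The 17 to 69 counts of the middle-aged naïve libraries did not overlap the 0 to 2 of the young ones. For the other 8 members the libraries of the naïve groups overlapped, with Mmp2 at -0.48 ± 0.26 (adjusted p = 0.360) and Mmp9 at 0.31 ± 0.27 (adjusted p = 0.567) the furthest from 0 on the log2 scale among those detected in both groups.

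In injured tissue Mmp12 was again the 1 member that passed, against 1.15% of all tested genes. It was 1.47 ± 0.30 higher on the log2 scale in middle-aged than in young lesions (edgeR adjusted p = 0.0271), a ratio of summed counts of 2.80 (2.68 to 2.92 for counting error). The lowest middle-aged injured library, at 137.5 CPM, was above the highest young injured one, at 85.9 CPM. The call was lost, with adjusted p-values of 0.107 to 0.187, when any 1 young injured library or middle-aged injured replicate 1 or 2 was left out, while the log2 difference stayed between 1.19 and 1.55. Timp1 was 0.32 ± 0.23 higher (adjusted p = 0.808), with no overlap between 28.2 to 30.6 CPM in young and 33.9 to 41.0 CPM in middle-aged lesions (exact permutation test, 2-sided p = 0.1, the smallest for 3 against 3). Timp3 was -0.44 ± 0.19 (adjusted p = 0.428), and the libraries of the remaining members overlapped between ages.

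The injury effects of the 2 ages were then compared with each other. None of the members tested differed at the threshold by edgeR, at which 0.139% of all genes passed, and 1 member, Mmp12, had an unadjusted p under 0.05. Its injury effect was smaller in middle-aged mice by 3.91 ± 0.96 on the log2 scale (difference -3.91, unadjusted p from edgeR's model across all genes 0.00109, adjusted p = 0.134). DESeq2 called the same difference (-4.04, adjusted p = 0.00465). So did edgeR with no filter (adjusted p = 3.33e-05) and edgeR without middle-aged naïve replicate 2 (adjusted p = 0.0448). It stayed uncalled in 11 of 12 fits with a library left out and in 7 of 9 other settings. The young naïve libraries held 3 counts in all, so the size of the young step is uncertain. Middle-aged tissue held more Mmp12 in both conditions, and the step from naïve to injured was estimated as smaller on the log2 scale only. In CPM the mean went from 4.40 to 217.7 at middle age and from 0.0966 to 78.4 in the young. For Timp1 and Timp2 the differences were 0.05 ± 0.60 and -0.08 ± 0.19.

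Myeloid markers moved with Mmp12 in the injury comparisons and, in part, between the ages in naïve tissue. Between the ages in injured tissue the pan-myeloid markers were higher in sum at middle age, but none passed the threshold. The summed level of 6 pan-myeloid markers (Aif1, Itgam, Csf1r, Cd68, Ptprc and Tyrobp) was 71.8 to 102.0 CPM in young naïve, 109.7 to 147.2 in middle-aged naïve, 1373 to 1394 in young injured and 1461 to 1950 CPM in middle-aged injured tissue. All 6 rose with injury at both ages, 4 of the 6 were higher in middle-aged naïve tissue, and none passed between the ages in injured tissue. In lesions their summed levels did not overlap between the ages, and their median log2 difference was 0.34. Set against these markers, Mmp12 had 0 to 2.54 counts per 1000 pan-myeloid counts in young naïve and 12.5 to 60.4 in middle-aged naïve tissue. In lesions the ratio was 47.8 to 61.9 in young and 94.1 to 153.1 in middle-aged mice. Neither pair of ranges overlapped, and the same held per 1000 counts of 5 monocyte and macrophage markers (Ccr2, Ly6c2, Lyz2, Ms4a7 and Mrc1), at 0 to 9.43 against 20.2 to 58.1 in naïve tissue and 11.4 to 14.7 against 18.8 to 37.7 in lesions. On that second scale middle-aged naïve tissue overlapped middle-aged lesions and lay above young lesions.

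**Figure D3:**
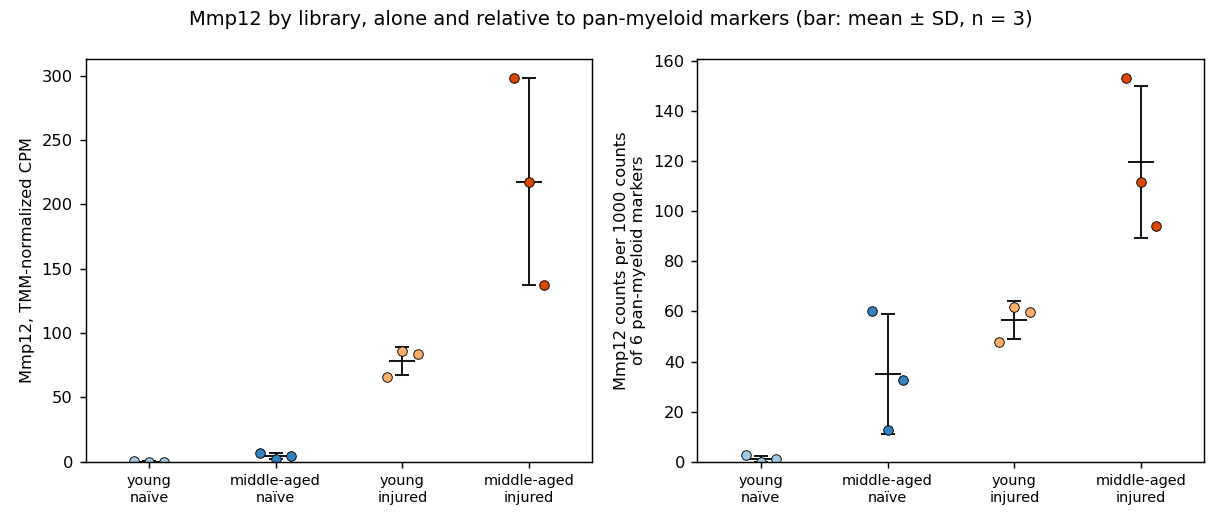
Mmp12 in each library as TMM-normalized CPM (left) and as counts per 1000 counts of 6 pan-myeloid markers (right), on linear axes from 0, with the mean ± SD of 3 libraries per group. Middle-aged libraries lie above young ones in both panels and both conditions, at 12.5 to 60.4 against 0 to 2.54 in naïve tissue on the right.

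Of the members, 5 others were set against the same markers. Timp1 had 2.11 to 9.70 counts per 1000 pan-myeloid counts in young naïve and 20.2 to 22.3 in young injured tissue, and 1.75 to 5.89 and 18.4 to 23.2 in middle-aged tissue. Per 1000 monocyte and macrophage counts, however, Timp1 was lower in young lesions (4.10 to 5.32) than in young naïve tissue (8.33 to 28.3), and at middle age lesions (4.52 to 5.46) overlapped naïve tissue (1.69 to 9.52). Mmp2, Mmp14, Mmp19 and Timp2, although higher in injured tissue in CPM, were lower per myeloid marker count. Mmp2 had 101.2 to 145.5 counts per 1000 in young naïve and 13.3 to 16.0 in young injured tissue, and Timp2 1333 to 2220 and 297.3 to 309.8. Of 6 markers of fibroblasts and mural cells, a known source of Mmp2, 5 rose as well and 1 fell at each age. Their summed level was 277.2 to 355.6 CPM in young naïve, 802.6 to 1190 in young injured, 300.8 to 417.0 in middle-aged naïve and 467.8 to 673.4 CPM in middle-aged injured tissue. Oligodendrocyte markers fell (6 of 6 at both ages), with 86700 to 102000 CPM in young naïve, 18250 to 20260 in young injured, 53010 to 60300 in middle-aged naïve and 7930 to 12450 CPM in middle-aged injured tissue. How much of any member's change went with this altered mix of cells was not tested.

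To compare levels between genes, CPM were divided by the length of exon in kilobases. Counts of Timp3 and Mmp19 may include reads of Syn3 and Tmem198b, since their shared exon bases cannot be told apart without strand. In young naïve tissue Timp2 was highest (38.9 ± 3.44 CPM per kilobase), followed by Timp3 (29.1 ± 2.18) and Mmp19 (15.7 ± 2.29), each separate from its neighbour. Mmp2, Mmp9 and Mmp14 followed at 2.98, 2.49 and 1.90 with overlapping libraries, then Timp1 at 0.558, and Mmp3, Mmp12 and Mmp13 were near or at 0. In middle-aged naïve tissue the first 3 places were the same, and Mmp12 (0.608 ± 0.338) reached the range of Timp1 (0.688 ± 0.409). In young lesions the order was Timp2 (108.4), Timp3 (39.2), Timp1 (33.2), Mmp19 (27.2) and Mmp12 (10.8), with overlap only between Timp3 and Timp1. In middle-aged lesions Timp2 (116.2 ± 6.12) again stood alone, and each of Timp1 (41.5), Mmp12 (30.1), Timp3 (28.9) and Mmp19 (27.3) overlapped the next. The order depends on the length used: with the longest transcript in place of all exons, Timp3 (50.1) was above Timp2 (40.8) in young naïve tissue and Mmp12 (48.7) above Timp1 (41.8) in middle-aged lesions.

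The summed level of the 3 inhibitors exceeded that of the 7 proteases in every library. In naïve tissue the inhibitors made 71.1% to 78.1% of the total per kilobase in young and 72.0% to 75.3% in middle-aged mice. In lesions they made 75.9% to 79.2% in young and 70.1% to 74.9% in middle-aged mice, which did not overlap. The ratio of inhibitor to protease transcripts was thus 3.14 to 3.80 in young and 2.35 to 2.98 in middle-aged lesions, and 2.94 to 3.75 against 1.91 to 2.63 with the longest transcript. Within the proteases Mmp12 made 0% to 0.123% in young naïve, 17.8% to 22.4% in young injured, 0.982% to 3.95% in middle-aged naïve and 32.8% to 51.4% in middle-aged injured tissue. Mmp19 made 64.1% to 69.8% in young naïve and 48.6% to 54.2% in young injured tissue, and 67.5% to 74.0% and 28.6% to 47.5% in middle-aged tissue. Timp1 made 0.390% to 1.16% of the inhibitors in young naïve and 17.8% to 19.5% in young injured tissue, and 21.4% to 23.2% in middle-aged lesions. These shares are of the 10 genes only: Mmp15 (13.4 ± 0.340 CPM per kilobase) and Timp4 (7.46 ± 0.333) in young naïve tissue are outside them. The levels of Timp3 and Mmp19 in them may include reads of Syn3 and Tmem198b, with which they share exon bases. They are shares of transcripts and carry no information on active enzyme.

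**Figure D4:**
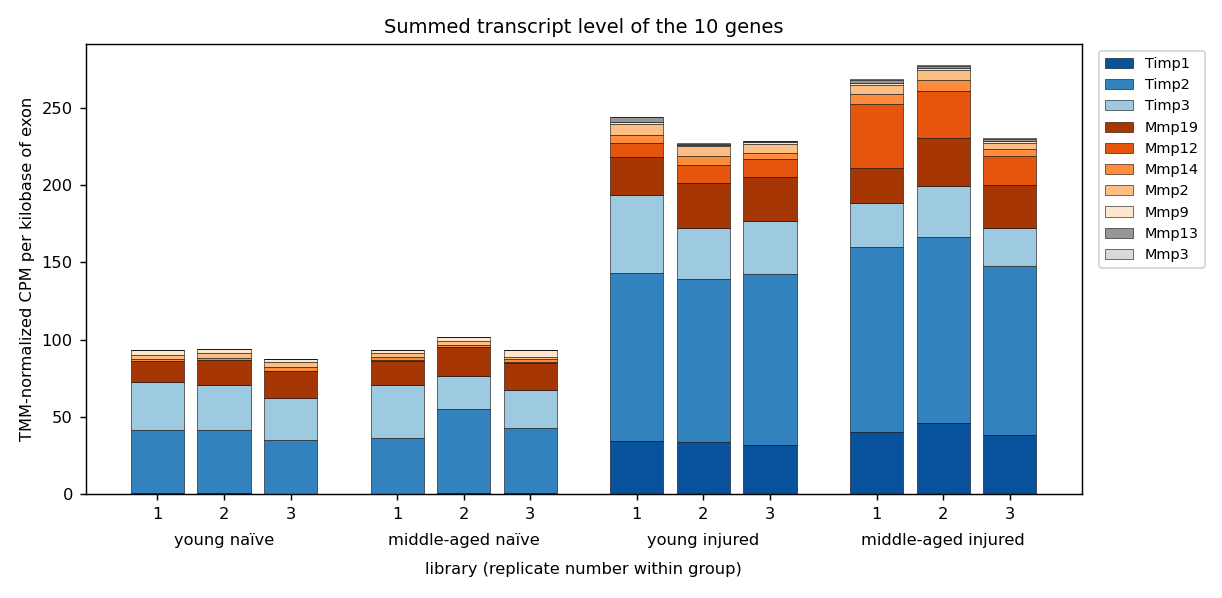
Summed TMM-normalized CPM per kilobase of exon (y axis, from 0) of the 10 genes in each of the 12 libraries (x axis, replicate number within group), inhibitors in blue and proteases in orange, brown and grey. The bars are taller in all injured libraries, inhibitors fill 70.1% to 79.2% of every bar, and the Mmp12 segment is widest in the middle-aged injured libraries.

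Mmp13, Mmp12 and Mmp3 lie within 427.1 kilobases of chromosome 9 (chr9:7272514-7699585) with 7 other MMP genes, which were counted in the same libraries. None of the 10 genes of this row exceeded 3 counts in any young naïve library. In injured tissue 5 of them (Mmp13, Mmp12, Mmp10, Mmp8 and Mmp27) exceeded 3 counts in every library, and Mmp1a, Mmp1b and Mmp7 stayed at 0 throughout. Mmp8, the neutrophil collagenase, had 118 to 194 counts in young and 166 to 293 in middle-aged injured libraries. Its summed counts in young lesions were 121.7-fold over 3 counts summed over the young naïve group. Against the same summed floor, Mmp10, or stromelysin-2, was 33.0-fold higher in young and 51.8-fold higher in middle-aged lesions, and Mmp27 10.5-fold and 13.5-fold. With 3 counts in each naïve library these values would be lower. The letters in the promoters did not sort these genes by their counts: Mmp8 rose with neither the AP-1 nor the TATA letters, and Mmp1a, Mmp1b and Mmp7 stayed at 0 with both.

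**Figure D5:**
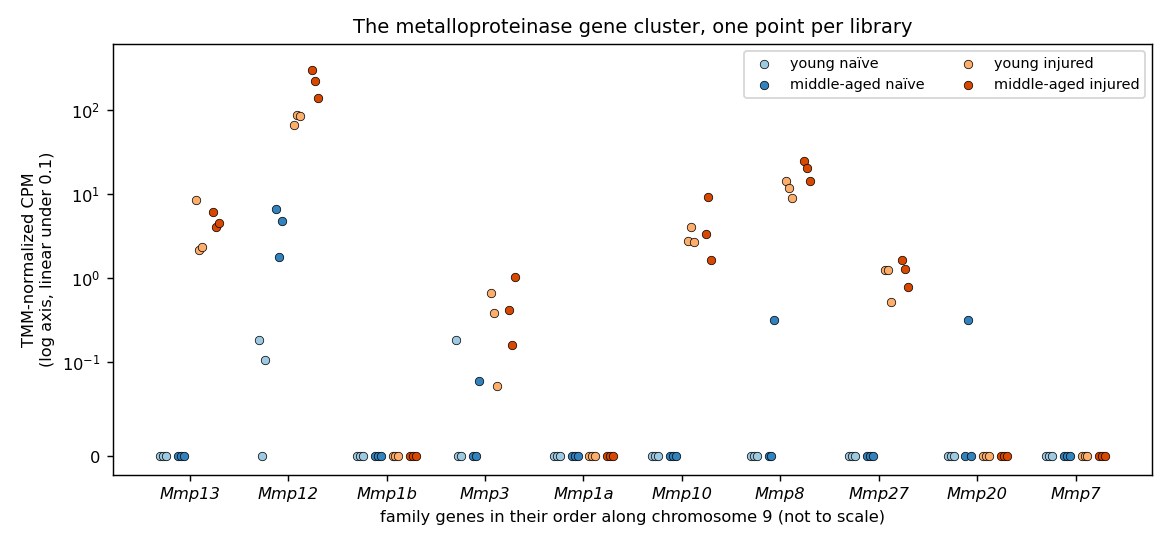
TMM-normalized CPM (y axis, logarithmic above 0.1 and linear below) of the 10 MMP genes on chromosome 9 in their order along the chromosome (x axis, not to scale), 1 point per library coloured by group. Mmp13, Mmp12, Mmp10, Mmp8 and Mmp27 rise in injured libraries, while Mmp1b, Mmp1a and Mmp7 are at 0 in all.

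The rest of both families, 17 genes of which 11 could be tested, gave 6 that rose and 3 that fell in young mice, where 28.3% of all tested genes rose and 26.3% fell. In middle-aged mice 6 rose and 4 fell, where 29.2% of all tested genes rose and 29.3% fell. Of those that rose, Mmp8, Mmp10, Mmp27 and Mmp23 passed the filter on low counts only through injured tissue, so they had to differ. The medians were 0.60 and 0.95 on the log2 scale, also with Mmp8, Mmp10 and Mmp27 at their bounds. Besides the chromosome 9 genes, Mmp11 (2.16 and 1.32), the membrane-type Mmp16 (0.60 and 0.95) and Mmp23 (3.24 and 3.64) rose at both ages. Those that fell were the membrane-type Mmp15 (-1.17 and -1.20), Mmp24 (-0.69 and -0.85), the inhibitor Timp4 (-0.81 and -1.22) and, in middle-aged mice, Mmp17 (-0.97, edgeR adjusted p = 0.0100). Mmp28 did not pass at either age. Timp4 and Timp1 therefore moved in opposite directions within the inhibitor family.

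A further 14 genes were chosen as activators, partners, substrates, membrane inhibitors or clearance receptors of MMPs and TIMPs. They were chosen with earlier results of these data known, so their counts are a description only. Of these 13 were tested, and 10 rose and 1 fell at each age. Of all tested genes 28.3% rose and 26.3% fell in young mice, and 29.2% and 29.3% in middle-aged mice. Plau, the urokinase that makes plasmin for cutting MMP precursors, rose by 6.35 and 4.71 on the log2 scale, and its receptor Plaur by 5.39 and 4.71. In young naïve libraries Plau had 1 to 4 and Plaur 1 to 5 counts, and in middle-aged naïve ones 4 to 18 and 5 to 9. Both passed the filter on low counts only through injured tissue, so they had to differ. Furin, which activates Mmp14 inside the cell, rose by 2.18 and 2.64. Lcn2 rose by 4.46 and 5.53, while Mmp9 fell. Cd63, a surface partner of Timp1, rose by 2.52 and 2.41, and Cd44, a dock for Mmp9 and Mmp14, by 1.61 and 2.20. Lrp1, a receptor that clears MMPs and TIMPs from the cell surface, rose by 1.83 and 1.94. The sheddase Adam10 rose by 1.02 and 1.05, and Dag1, a matrix receptor that MMPs cut, by 0.35 and 0.55. Adam17, which Timp3 inhibits, rose by 1.37 and 2.05 while Timp3 did not pass the threshold. Plat, the tissue plasminogen activator, fell by 0.40 and 0.39 on the log2 scale, and Bsg and Reck did not pass. In naïve tissue Plau was higher (2.38, edgeR adjusted p = 0.0389) and Adam17 lower (-0.60, adjusted p = 0.0116) in middle-aged mice.

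Across the 12 libraries, the genes whose log2 CPM followed a member most closely were listed among 13085 genes, as Pearson's r and without a test, since the 4 groups are shared by every pair. Timp2 and Timp1 followed each other at r = 0.992. Timp1 was nearest to Glb1 (0.997) and Timp2 to Eif4ebp1 (0.998). Mmp12 was nearest to Zbtb42 (0.990) and to Aim2 (0.987), a sensor of cytosolic DNA in myeloid cells. Mmp13 was nearest to Thbs1 (0.986), Mmp14 to Rgl2 (0.984), Mmp19 to Gnai2 (0.969) and Mmp2 to Trmt112 (0.976). Mmp9 was nearest to Mir124-2hg (0.972), the host of a neuronal microRNA, and ran opposite to every other tested member, from r = -0.34 with Timp3 to -0.89 with Mmp2. Timp3 was nearest to Syn3 (0.973), with which it shares exon bases, and the next gene, Tinagl1, was at 0.890.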

How the data were processed

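RNA of 12 libraries (4 groups, 3 libraries each) was analysed. The sample labels gave the groups and replicate numbers. The study's methods gave ages and time after injury. The authors deposited raw counts per gene, made with featureCounts after quality control in FastQC 0.11.4 and mapping by TopHat 2.0.10 (bowtie 1.1.2) to GRCm38. The annotation release, strand setting and treatment of shared reads are not given in the sources used here. RNA was amplified before sequencing, so counts are not independent molecules and intervals cover counting error only.

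Counts were tested in R 4.3.3 with edgeR 4.0.16 (TMM, filterByExpr, glmQLFit and glmQLFTest; 1 coefficient per group, no covariates), with Benjamini-Hochberg adjustment over 15866 genes and a threshold of 0.05. Standard errors were derived from each log2 fold change and its F statistic. Levels use effective library totals, and log2 CPM a prior count of 2. Ratio intervals are exact at 95%. The floor was 3 counts. Single values were also compared by 2-sided exact permutation tests, whose smallest p is 0.1 within an age and 0.005 over both. The edgeR steps were tested on simulated data. Totals were 9834447 to 12807437 counts per library.

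Symbols and positions came from GENCODE on GRCm38 (45143 of 46078 identifiers had a symbol). All 10 members were named in every comparison. Of the other family genes and of the activators, those past the threshold in an injury comparison were to be named, and for each tested member the genes with the highest Pearson's r, among those with a mean log2 CPM of at least 1. The members and lists were chosen with earlier results of these data known. Alternatives were DESeq2 1.42.0, other scalings, mitochondrial genes left out, other filters, the replicate number as a block, only the libraries compared, each library left out, and the longest transcript as length. Log2 fold changes of genes at 0 counts in a group were not printed. No other experiment of the study was analysed here.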

Additional observations from a re-analysis of the deposited data

How the results depend on the processing

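With 3 libraries per group, differences between ages were more sensitive to the analysis than injury effects. Of 396 recomputed injury values of the members, 387 kept direction and side of the threshold, 1 lost its call (Mmp9 in young mice), 7 gained one (all Timp3 in young mice) and 1 reversed (Timp3 in middle-aged mice, not called). Of 541 recomputed values for the ages and for the difference of injury effects, 507 were unchanged in this sense, 5 lost a call (Mmp12 in injured tissue), 3 gained one (Mmp12, difference of injury effects) and 26 reversed, none of which had passed the threshold. The causes were not tested.

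The number of members called stayed within 8 to 9 for injury at both ages and at 1 for age in naïve tissue in every alternative. It was 1 for age in injured tissue, with 0 to 1 when a library was left out. For the difference of injury effects it was 0, against 1 with DESeq2, 1 with no filter and 0 to 1 when a library was left out. Over all genes, the count called for age in naïve tissue was 603, against 1085 with DESeq2, 1153 with no filter, 71 with only the libraries compared and 261 to 800 with a library left out. For age in injured tissue it was 182, against 446, 437, 818 and 45 to 410. For the difference of injury effects it was 22, against 240 with DESeq2, 329 with no filter and 3 to 56. Scaling to library totals moved the median of all genes by 0.20 on the log2 scale in young mice and the split of higher and lower genes from 4483 and 4177 to 5380 and 3236.

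Values near 0 changed sign. The age difference of Mmp19 in injured tissue was 0.0019, against -0.057 with library totals, -0.0015 with upper-quartile scaling, -0.00048 with no filter, -0.0056 with the replicate block and -0.00053 with only the libraries compared. The difference of injury effects of Timp1 was 0.05, against -0.034 with library totals. With a library left out the ranges were -0.11 to 0.12 for Mmp19 and -0.35 to 0.37 for Timp1 in these comparisons. They were -0.47 to 0.24 (Mmp14), -0.050 to 0.67 (Timp1), -0.35 to 0.0010 (Timp3) and -0.0032 to 0.46 (Mmp9) for age in naïve tissue, -0.15 to 0.13 (Mmp9) and -0.15 to 1.11 (Mmp13) for age in injured tissue, -0.21 to 0.095 (Timp2) and -0.011 to 0.46 (Mmp2) for the difference of injury effects, and -0.0075 to 0.34 for injury in Timp3 of middle-aged mice.

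Replicate numbers did not pair libraries across groups: deviations of same-numbered libraries correlated at r = -0.11 to 0.15, over 0.1 in 2 of 18 pairs, and 14 of 36 best matches had the own number. With the replicate block 9 members were called for injury in young mice (Timp3 added) and 8 in middle-aged mice, and it changed no other call of a member. Below the floor of 3 counts, as for Mmp3 in naïve tissue, depth limits what can be told apart.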
